A study of Drosophila melanogaster with 4 samples.

Results

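The salivary glue genes and new-glue genes of Drosophila melanogaster were followed on 4 two-colour arrays that compared RNA from 2 immunoprecipitations (IPs). The genes were chosen by name: the probes that the platform annotation assigns to exactly 1 gene symbol, equal to Sgs1, Sgs3, Sgs4, Sgs5, Sgs7, Sgs8, ng1, ng2, ng3 or ng4. Each of these 10 genes had 1 probe, among 13147 probes with 1 symbol, which stand for 12236 genes. All 10 probes had a value on all 4 arrays, as did 10850 of the single-symbol probes. The genes were picked with earlier results of these arrays in view, in both readings of the ratio described here, so their values are a description. Where a count past limma's threshold is given, it stands beside the share of all probes, and nothing about the genes rests on it.

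The study looked for mRNAs bound by dASF/SF2, an SR protein of splicing (gene SF2), in the developing eye. Larvae carried GMR, a driver active in the developing eye, with GFP-dASF/SF2 or, as the control, with GFP-NLS, a GFP directed to the nucleus. Each IP used an antibody against GFP on a pool of the anterior parts of 600 third-instar larvae, so both kinds of extract held much besides eye tissue. The dASF/SF2 IP was in Cy5 and the GFP-NLS IP in Cy3 on 2 arrays, called the Cy5 arrays here, and the dyes were exchanged on the other 2, called the Cy3 arrays. There is a Cy5 and a Cy3 array for each of replicates 1 and 2. A Cy5 array and the Cy3 array with the same replicate number are a dye swap, per the labels, and count as 1 replicate, which gives n = 2. The labels give the replicate number alone, so the spread between replicates may be technical, and they do not say whether the driver put either protein into the salivary gland. Whether a ratio reflects binding, fewer gland cells in a pool or less RNA per cell cannot be told apart here.

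The larval salivary gland makes the glue that fixes the puparium to its support. In the third larval instar, ecdysone switches on the Sgs genes at the intermoult puffs of the polytene chromosomes, the glue proteins are stored in secretory granules, and a later ecdysone pulse has them released and the genes shut off. Sgs1, Sgs3 and Sgs4 encode mucin-like proteins rich in repeats, while Sgs5, Sgs7 and Sgs8 encode smaller ones. The ng (new-glue) genes are transcribed in the same gland and lie at the intermoult puff that also holds Sgs4. ng1 and ng2 are known as close copies of each other, so their probes may detect both transcripts. Probe sequences were not used here, so cross-hybridisation was not tested.

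The deposited values are log ratios whose base and numerator are not stated. The median of each array was set to 0, and values are given in log-ratio units with no fold. A "turned" value has its sign changed on the Cy3 arrays. If the deposited ratio is Cy5 over Cy3, a turned value above 0 is a higher share in the dASF/SF2 IP; if it is Cy3 over Cy5, a higher share in the GFP-NLS IP. If the ratios already ran from sample to sample, the unturned mean is the IP comparison and the turned value is a dye difference. The arrays do not settle this: across the 10850 single-symbol probes, which are not independent of each other, Pearson's r between dye-swapped arrays was 0.169 in replicate 1 and -0.565 in replicate 2. Over all 12847 probes measured on 4 arrays it was 0.236 and -0.054, while the rank correlation (Spearman's rho) was 0.191 and -0.467. Between arrays of different replicates, the single-symbol r was 0.530 (both Cy5) and 0.287 (both Cy3). With the dyes exchanged it was -0.305 (Cy5 of replicate 1) and -0.120 (Cy5 of replicate 2). Neither sign is therefore assigned to an IP. The deposited values had a standard deviation of 0.247 to 0.342 per array, and the Cy3 array of replicate 2 held 811 exact zeros against 0 to 35 on the others.

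On the turned scale the glue genes lay below the new-glue pair ng1 and ng2. The turned mean was below 0 for 6 of 6 Sgs genes, with a median of -0.15, and above 0 for 3 of 4 ng genes, with a median of 0.33, where the median of all 10850 probes was 0.00050. The Sgs means ran between -0.30 for Sgs8 and -0.0085 for Sgs1, and the ng means between -0.088 for ng4 and 0.52 for ng2. The 6 Sgs genes were lower than both ng1 and ng2 on each of the 4 turned arrays (12 of 12 pairs per array). Most probes were lower than ng1 too. On the Cy5 arrays of replicates 1 and 2, 72.56% and 99.95% of single-symbol probes lay below it. On the Cy3 arrays before turning, where ng1 was below 0, 4.424% and 0.8018% did. The Sgs median minus the ng median was -0.43 and -0.85 on the Cy5 arrays of replicates 1 and 2, and -0.41 and -0.38 on the Cy3 arrays. On the Cy5 array of replicate 1 the families did not overlap, with the Sgs gene lower in 24 of 24 pairs of an Sgs and an ng gene. On the other 3 arrays they overlapped, with 20 of 24 pairs in Cy5 of replicate 2, and 22 and 18 of 24 in Cy3 of replicates 1 and 2. These pairs reuse the same 10 genes, and 12 of 24 on each array involve ng1 or ng2. Against ng4, the Sgs gene was lower in 6 and 2 of 6 pairs in Cy5 of replicates 1 and 2, and 5 and 0 in Cy3. No share over all probes was computed for pairs. With ng1 and ng2 averaged and counted as 1 gene, a setting chosen after the data were seen, the difference of the medians over all arrays was -0.31, against -0.49 with both. Of all 12847 probes measured on 4 arrays, 0% passed limma's moderated test at an adjusted p under 0.05, turned or not turned, and so 0 of the 10 genes did; 23.2% had an unadjusted p under 0.05 turned, and 5.57% not turned.

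**Figure D1:**
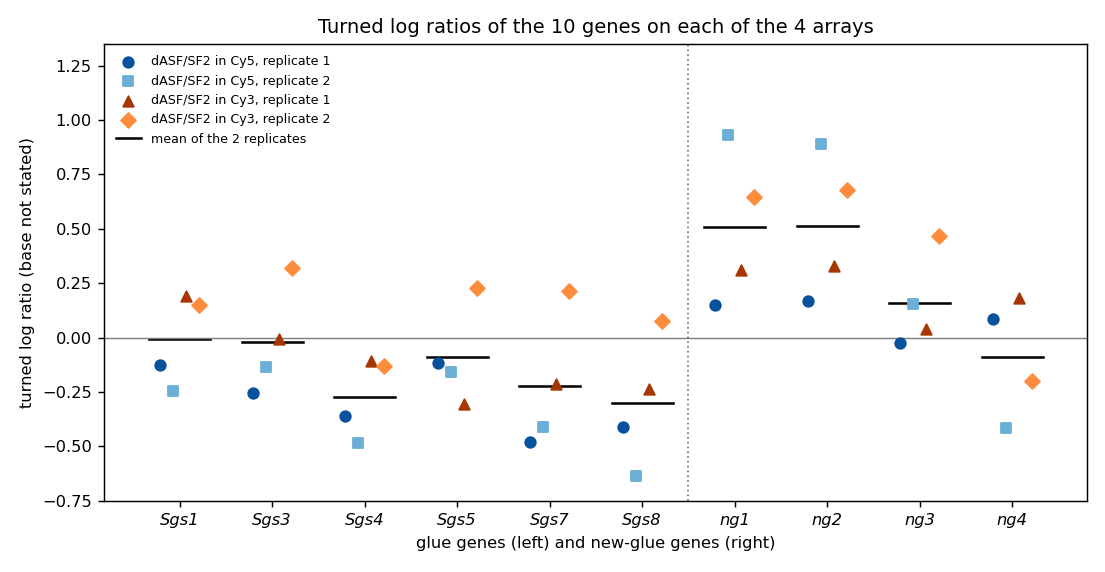
Turned log ratio (vertical axis, base not stated) of each glue gene and each new-glue gene (horizontal axis) on the 4 arrays, with a black line at the mean of the 2 replicates. The values of ng1 and ng2 are above 0 on all 4 arrays and above each Sgs gene on the same array, while ng4 changes side with the replicate.

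ng1 and ng2 had the highest turned means of the 10 genes. The turned values of ng1 were 0.152 and 0.930 on the Cy5 arrays of replicates 1 and 2, and 0.309 and 0.647 on the Cy3 arrays. Those of ng2 were 0.168 and 0.888 in Cy5, and 0.329 and 0.677 in Cy3. Both genes were above 0 on every array, and both arrays of replicate 2 were higher than both arrays of replicate 1. Their means were 0.51 ± 0.39 and 0.52 ± 0.38 (SD over 2 replicates), so the SD came to most of the mean. Of the single-symbol probes, 99.85% lay below ng1 and 99.87% below ng2 on the turned mean. Not turned, the same genes were near 0, at 0.032 ± 0.156 and 0.013 ± 0.132, with 57.4% and 49.5% of probes below them.

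The 2 probes gave almost the same reading. They differed by at most 0.042 on any array, and over the 4 arrays their Euclidean distance was 0.058. Among 10352 other genes, ng2 was the nearest to ng1, and ng1 the nearest to ng2. Values of close copies on the same arrays are not independent of each other.

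The other new-glue genes did not share that level. ng3 had turned values of -0.026 and 0.153 in Cy5, and 0.042 and 0.467 in Cy3, so 3 of 4 arrays were above 0 and the mean was 0.16 ± 0.21. On the unturned scale ng3 was at -0.096 ± 0.087. ng4 had turned values of 0.084 and -0.417 in Cy5, and 0.183 and -0.201 in Cy3. Its dye-swapped arrays thus had 1 sign within each replicate, but both arrays of replicate 1 were above 0 and both of replicate 2 below, for a mean of -0.088 ± 0.313. The nearest family member of ng3 was ng2 at a distance of 0.84, with 8232 other genes closer. For ng4 it was ng3, at 0.90. Both lay nearer to an Sgs gene than to any ng gene: ng3 to Sgs3, at 0.40, and ng4 to Sgs1, at 0.44. ng1 and ng2 were above 0 on all 4 turned arrays and ng3 and ng4 were not (2 of 4 genes, against 12.1% of all probes). Not turned, 0 of 4 were above 0 on all 4 arrays, against 7.15% of all probes.

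Sgs4, a mucin-like glue gene of the same puff as the ng genes, was the Sgs gene with 1 turned sign throughout. Its turned values were -0.362 and -0.483 in Cy5, and -0.109 and -0.130 in Cy3. The Cy5 arrays were further from 0 than those in Cy3. The mean was -0.27 ± 0.05 (SD, n = 2), with 6.30% of single-symbol probes below it. It was the 1 of 6 Sgs genes below 0 on all 4 turned arrays, against 16.1% of all probes. The count of such Sgs genes is thus near the share of all probes. Not turned, Sgs4 was at -0.15 ± 0.04.

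Sgs7 and Sgs8, neighbouring genes for small glue proteins, had low values on 3 of the 4 turned arrays. Sgs8 had -0.409 and -0.634 in Cy5, and -0.237 and 0.078 in Cy3, with a mean of -0.30 ± 0.03. Sgs7 had -0.480 and -0.412 in Cy5, and -0.212 and 0.215 in Cy3, with a mean of -0.22 ± 0.17. In both genes the Cy3 array of replicate 2 lay on the other side of 0 from the remaining 3. The small SD of Sgs8 covers the 2 replicate means and not the arrays, which spanned more of the scale in replicate 2. On the turned mean, 4.76% of single-symbol probes lay below Sgs8 and 9.86% below Sgs7. On the Cy5 array of replicate 2 alone, where Sgs8 was furthest from 0, 0.571% lay below Sgs8 and 3.29% below Sgs7. The pair differed by at most 0.222 on any array, and Sgs7 ranked as the third nearest gene to Sgs8 among 10352. For Sgs1, Sgs3, Sgs4 and Sgs5, 830, 389, 179 and 349 genes were closer than the nearest Sgs gene. These ranks depend on how many genes lie nearby, and the distances differed less. They were 0.27 for Sgs7 and Sgs8, 0.29 for Sgs4 and Sgs8, and 0.31 for Sgs1 and Sgs3. The last 2 pairs differed by at most 0.208 and 0.197 on any array.

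Sgs3 and Sgs5 had the same signs on the 4 turned arrays as Sgs7 and Sgs8. Sgs3, which encodes a large mucin-like glue protein, had turned values of -0.253 and -0.134 in Cy5, and -0.007 and 0.318 in Cy3. Sgs5, for a small glue protein, had -0.117 and -0.159 in Cy5, and -0.304 and 0.230 in Cy3. Each was below 0 on 3 turned arrays and above 0 on the Cy3 array of replicate 2. Their means were -0.019 ± 0.157 and -0.088 ± 0.174, so both lay nearer to 0 than their SD.

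Sgs1, the other mucin-like gene, did not turn with the dye. Its turned values were -0.125 and -0.247 in Cy5, and 0.190 and 0.148 in Cy3. The sign thus followed the dye orientation, and the turned mean was -0.0085 ± 0.058. Not turned, Sgs1 was below 0 on all 4 arrays, with a mean of -0.18 ± 0.03, and it was the 1 of 6 Sgs genes with that pattern, against 6.45% of all probes.

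The 2 replicates gave the Sgs genes different readings. In replicate 1, 5 of 6 Sgs genes were below 0 on both turned arrays, Sgs1 being the exception, against 23.2% of all probes. In replicate 2, 1 of 6 was, Sgs4, against 34.8% of all probes. The other 5 had deposited ratios below 0 whichever dye the dASF/SF2 IP carried. Over all probes the replicates ranked the other way: the dye-swapped arrays had 1 turned sign for 44.9% of probes in replicate 1 and for 67.3% in replicate 2. For the ng genes, 3 of 4 were above 0 on both turned arrays of replicate 1 (ng1, ng2 and ng4), against 21.7% of all probes. In replicate 2, 3 of 4 were (ng1, ng2 and ng3), against 32.5%.

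**Figure D2:**
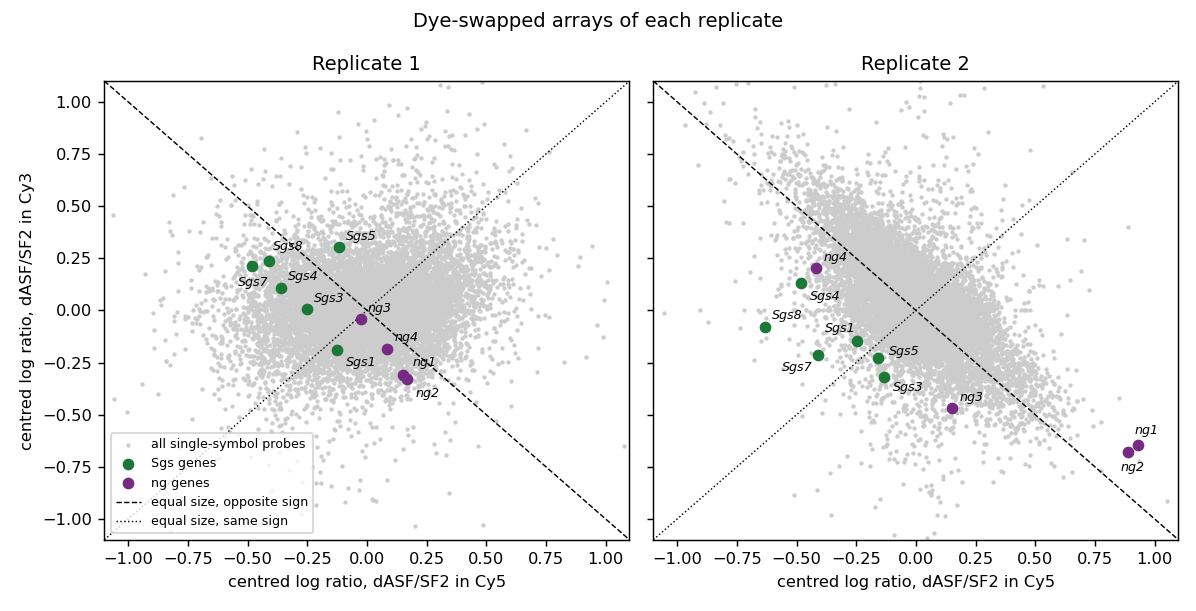
Centred, unturned log ratio with dASF/SF2 in Cy5 (horizontal axis) against that with dASF/SF2 in Cy3 (vertical axis) for the dye-swapped arrays of replicate 1 (left) and replicate 2 (right), with the Sgs genes in green, the ng genes in purple and all 10850 single-symbol probes in grey; 59 of these reach beyond the axes. In replicate 1, 5 Sgs genes lie above 0 on the vertical axis and below 0 on the horizontal one, and in replicate 2, 5 Sgs genes lie below 0 on both, while ng1 and ng2 lie at the lower right in both.

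The count of Sgs genes on 1 side depended on which Cy3 array was left out. Without that of replicate 2, the array with the exact zeros, 5 of 6 Sgs genes were below 0 on all 3 remaining turned arrays, against 18.5% of all probes, and the Sgs median moved to -0.27. Without that of replicate 1, 1 of 6 was so, against 25.9% of all probes, and 5 of 6 were below 0 on all 3 remaining arrays not turned, against 8.81% of all probes. Without the Cy5 array of replicate 2, the turned Sgs median was -0.028. The turned ng median lay between 0.31 and 0.36 when any 1 array was left out, but differed between the replicates, at 0.18 in replicate 1 and 0.55 in replicate 2. The turned Sgs median was -0.22 in replicate 1 and -0.074 in replicate 2. These settings for counts were chosen after the data were seen.

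Not turned, the Sgs means lay below 0 too, but both readings take the Cy5 arrays with the same sign. On each Cy5 array 6 of 6 Sgs genes were below 0. On the Cy3 arrays before turning, 1 and 5 of 6 were, in replicates 1 and 2. The unturned mean was below 0 for 6 of 6 Sgs genes, between -0.22 (Sgs7 and Sgs8) and -0.051 (Sgs5), with a median of -0.18. It was below 0 for 2 of 4 ng genes, with a median of -0.033, where the median of all 10850 probes was 0.014. The unturned mean had 3.01% of single-symbol probes below it for Sgs7 and 26.8% for Sgs5, the other 4 Sgs genes lying in between. The Sgs median minus the ng median was -0.14 not turned, -0.061 in replicate 1 and -0.21 in replicate 2. That difference changed sign with the array left out: it was 0.050 and 0.19 without the Cy5 array of replicate 1 or 2, and -0.32 and -0.47 without the Cy3 array of replicate 1 or 2.

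**Figure D3:**
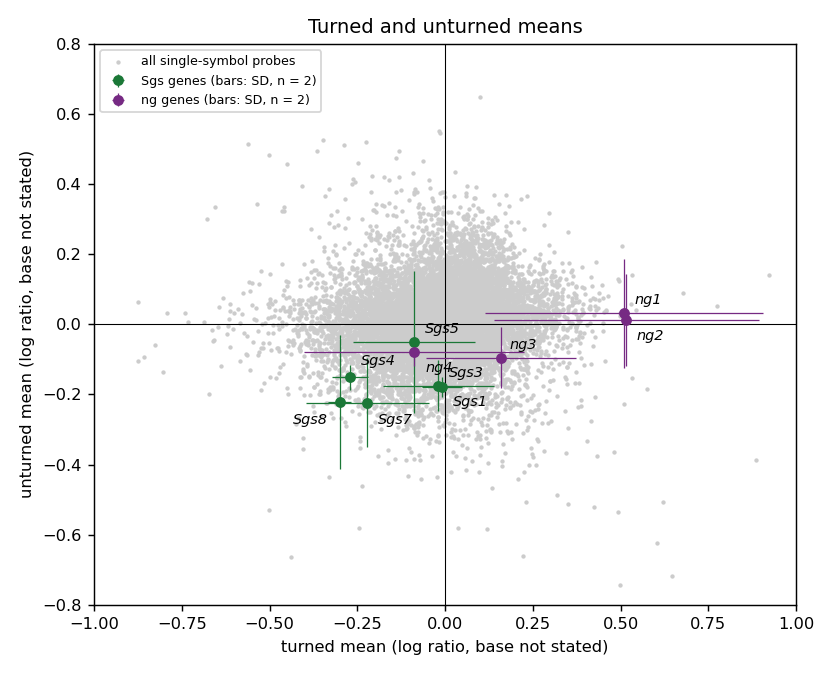
Turned mean (horizontal axis) against unturned mean (vertical axis) of the log ratio over 2 replicates, for the Sgs genes in green, the ng genes in purple (bars are the SD, n = 2) and all 10850 single-symbol probes in grey, 1 of which lies beyond the axes. The 6 Sgs genes lie below 0 on both axes, which take the Cy5 arrays with the same sign. ng1 and ng2 lie far to the right near an unturned mean of 0.

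The genes were next placed in the order of the RefSeq annotation. On the X chromosome ng2, ng3, ng1, ng4, Pig1 (a gene of the same puff region) and Sgs4 follow each other with 0 genes between neighbours. Their turned means in that order were 0.52, 0.16, 0.51, -0.088, -0.099 and -0.27. The close copies ng2 and ng1 were thus high on both sides of ng3, and the 3 genes after them had means below 0. Pig1, at -0.099 ± 0.011, was below 0 on all 4 turned arrays, as were 16.1% of all probes. On arm 3L, Sgs8 and Sgs7 are adjacent and 1 annotated gene separates Sgs7 from Sgs3. Their turned means were -0.30, -0.22 and -0.019. On arm 3R, Sgs5bis, named for its likeness to its neighbour Sgs5, was at -0.018 ± 0.057. Sgs1 lies alone on arm 2L.

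**Figure D4:**
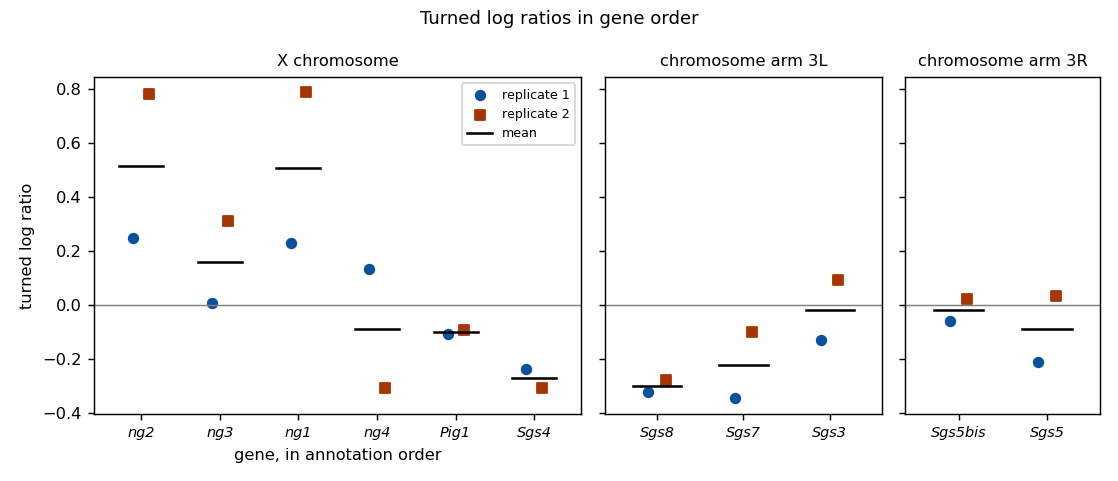
Turned log ratio (vertical axis) in replicates 1 and 2, with the mean as a black line, for neighbouring glue-region genes in annotation order (horizontal axis) on the X chromosome, arm 3L and arm 3R; distances are not drawn. On the X chromosome ng2, ng3 and ng1 are above 0 and Pig1 and Sgs4 below 0 in both replicates, with ng4 on different sides in the 2 replicates.

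Other genes of the gland were read in the same 2 ways. Of 13 listed genes of salivary gland puffs and the glue regions, 11 had a probe and 7 were measured on all 4 arrays. The turned mean was below 0 for 3 and above 0 for 4 of these, with a median of 0.074. Not turned it was below 0 for 5 and above 0 for 2, with a median of -0.054. As 0% of all 12847 probes passed the adjusted threshold in limma, 0 of the 7 did. The largest turned mean was that of Eig71Eg, a late ecdysone-induced puff gene, at 0.29 ± 0.34. The largest unturned mean was that of its neighbour in name, Eig71Ef, at -0.29 ± 0.10. Eig71Eh, Eig71Ei, Eig71Ej and Eig71Ek lacked a value on 1 or more arrays.

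Of 8 listed regulators, 5 were measured, with turned means between -0.019 and 0.089. Among them fkh, the forkhead factor that activates glue genes, was at 0.076 ± 0.084, and br, the Broad transcription factors of the early ecdysone response, at 0.089 ± 0.087 over 5 probes. EcR, the ecdysone receptor, had the largest unturned mean, 0.26 ± 0.37. Of 9 listed genes of granule packaging and release, 4 were measured. The turned mean was below 0 for all 4, with a median of -0.18, where the median of all 10850 probes was 0.00050. Not turned the mean was also below 0 for all 4, with a median of -0.077, where that of all probes was 0.014. On the turned scale these were AP-1gamma, of the clathrin adaptor of granule maturation, at -0.21 ± 0.22, Tango1, of cargo export from the endoplasmic reticulum, at -0.20 ± 0.12, hob, of glue secretion, at -0.16 ± 0.18, and Snap24, of granule fusion, at -0.088 ± 0.039. None of the 4 had 1 sign on all 4 turned arrays. As 0% of all probes passed the adjusted threshold in limma, 0 of the genes of either list did.

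Markers of other tissues in the extract were measured beside them, as ratios that show no level. Fat body markers, 3 of 5 measured, lay on the side of the Sgs genes on the turned scale. Their turned means were -0.35 ± 0.003 for Fbp2, -0.19 ± 0.08 for Lsp2 and -0.14 ± 0.03 for Fbp1. Of these 3, Fbp2 and Fbp1 were below 0 on all 4 turned arrays, against 16.1% of all probes. Not turned the 3 markers were near 0, at 0.023 for Fbp2, -0.052 for Lsp2 and -0.022 for Fbp1, against the Sgs median of -0.18. Developing eye markers went both ways when turned, 2 below 0 and 3 above among 5 measured of 6, between -0.46 ± 0.15 for sev and 0.27 ± 0.15 for lz. Not turned, all 5 were above 0, with a median of 0.10, where the Sgs genes had means below 0. The eye markers ran from 0.027 ± 0.028 (chp) to 0.32 ± 0.45 (elav), both with an SD above the mean. The muscle marker up, 1 of 4 listed, was at -0.099 ± 0.117. The part of these tissues in the values of the glue genes was not tested.

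The genes with the 4-array profile most like the mean profile of each family were found by Euclidean distance over 10343 other genes. For the Sgs genes they were CG8298 (0.11), CG3342 (0.12) and nAChRalpha2 (0.14), the last a subunit of the nicotinic acetylcholine receptor. For the ng genes they were GrlHz (0.064), CG15922 (0.065) and Ada2a (0.066), the last a transcriptional adaptor. The mean ng profile averages the high pair ng1 and ng2 with ng3 and ng4.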

How the data were processed

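The authors deposited 1 score per probe and array, a log ratio of the 2 channels. The labels state neither its base and numerator nor the background correction, normalisation or software, which are therefore not given here. The marker -10000, in 73 cells, was read as missing. Of 15744 probes, 13147 had 1 symbol in GEO's platform annotation, 99 several and 2498 none. Each array was centred on its median, arrays of a replicate were averaged (turned and not turned), and the mean of 2 replicates was tested against 0 over the 12847 probes measured on all 4 arrays with limma 3.58.1 (R 4.3.3), Benjamini-Hochberg adjustment and a threshold of 0.05. The procedure was tested on simulated data. Genes measured by several probes were averaged. Members, lists and readings were chosen with earlier results of these data known. Named genes were all members, the largest of each list and the 3 nearest genes to each family profile; others of a list were named after their values were seen. Gene order came from RefSeq (Release 6 plus ISO1 MT); the array names no build, so no coordinates are printed. Alternatives covered centring, scaling, filters, zeros, blocking and each array left out. No scanner signal was used, and precision is limited by the number of arrays. Figures used matplotlib 3.10.9 (Python 3.11.15).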

Additional observations from a re-analysis of the deposited data

Results flagged for a closer look

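Sgs1 stood out because its turned values were below 0 on both arrays with dASF/SF2 in Cy5 and above 0 on both arrays with dASF/SF2 in Cy3. Its unturned mean was -0.18 ± 0.03 (SD, n = 2), and -0.1775 before rounding. The difference between the dye orientations was not tested.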

How the results depend on the processing

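The medians of the 2 families kept their direction, and moved by less than 1 SD of the replicates, without centring, with the arrays scaled to 1 spread, with 1 array per replicate enough and with exact zeros read as missing. With each array left out, the Sgs median ran between -0.27 and -0.028 turned and between -0.25 and -0.055 not turned, the ng median between 0.31 and 0.36 turned and between -0.31 and 0.23 not turned, and the Sgs minus ng difference between -0.60 and -0.37 turned and between -0.47 and 0.19 not turned. With replicate 1 or 2 left out, the turned Sgs median was -0.074 or -0.22 and the turned ng median 0.55 or 0.18. With ng1 and ng2 counted as 1 gene, the turned difference was -0.31 and the unturned ng median -0.079. The count of Sgs genes below 0 on every turned array ran between 1 and 5, and not turned also between 1 and 5. For single genes, 172 of 200 alternative values lay within 1 SD of the reported one, and 178 kept its sign. Some of the 172 could not have moved further. With n = 2, leaving out a replicate always stays within 1 SD, and allowing 1 array per replicate changed no value of these genes. The 28 values beyond 1 SD all came from leaving out 1 array. The cause of these shifts was not tested. limma called 0 probes turned (2980 at an unadjusted p under 0.05) and 0 not turned (716). Turned, it called 3 with exact zeros missing, 3 with 1 value per gene, and between 0 and 184 with 1 array left out, the highest without the Cy5 array of replicate 1. With the replicate number as a block it called 1119, at an estimated correlation of -0.408 within a block, which makes standard errors smaller than independent arrays would. The dye-swapped arrays of a replicate are paired by the labels, and the calls reported average them.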
